A study of Mus musculus with 30 samples.

Results

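Desipramine, a tricyclic antidepressant, was set against saline in mice that had a sham operation and no nerve injury. The comparison used 9 of the 30 libraries of the study, 4 from sham mice given desipramine and 5 from sham mice given saline, each assigned by its sample label and each made from 1 animal. Polyadenylated RNA was sequenced from punches of the nucleus accumbens of both sides of male C57Bl/6J mice, whose age no label states. The sham desipramine mice received 15 mg/kg by intraperitoneal injection 2 times daily during 3 weeks that began 4 weeks after the operation, and the sham saline mice received saline on the same schedule. Further groups are used only as points of comparison. These were 6 sham mice on tianeptine at 30 mg/kg, another antidepressant, and mice with spared nerve injury (SNI, a surgical model of neuropathic pain) on desipramine (4 animals) or saline (5 animals). The remaining 6 libraries, from SNI mice on tianeptine, entered only the shared model fit.

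Desipramine blocks the noradrenaline transporter, which returns released noradrenaline to the nerve terminal. The nucleus accumbens is the ventral part of the striatum, where medium spiny neurons receive cortical glutamate input under the control of dopamine and other amines. The RAS-ERK cascade carries signals from growth factor and transmitter receptors, and it is held back by proteins of the SPRED and Sprouty families and by DUSP phosphatases. VGF is a secreted neuropeptide precursor made by neurons and induced by neurotrophins. The circadian clock is a transcriptional loop in which the CLOCK and BMAL1 proteins act at E-box sequences and the DBP protein at D-box sequences. The unfolded protein response raises chaperones of the endoplasmic reticulum (ER) through the ER stress response element (ERSE).

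The 4 sham desipramine libraries held 24.8 to 35 M (mega) counts. Among the 5 sham saline libraries, replicates 1 to 4 belonged to the same library set as the desipramine libraries, and replicate 5, with 120.7 M counts, to a second set that held no desipramine library. Within the first set the library numbers ran in unbroken runs by group, so handling in that order and treatment cannot be told apart. Mitochondrial transcripts made up 0.991% of counts in saline replicate 2 and 1.104% in saline replicate 5. They made up 1.854%, 1.69% and 1.783% in saline replicates 1, 3 and 4, and 1.437% to 1.809% in desipramine libraries. The cause of the low share in saline replicate 2, which bears on several results below, was not tested. The medium spiny neuron marker Ppp1r1b (DARPP-32) was measured at 501, 733, 401 and 897 counts per M counts (CPM) in desipramine libraries and at 807, 872, 553, 717 and 552 CPM in saline libraries. All 24 listed markers of these neurons passed the filter on low counts. A gene that marks cortical excitatory neurons, Slc17a7, was also present, at 706, 338, 961 and 20.2 CPM in desipramine libraries and at 143, 298, 358, 245 and 263 CPM in saline libraries. It was high in desipramine replicates 1 and 3 and low in replicate 4, a pattern that several genes below share.

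Promoter sequences are shown for members of the clock and ER chaperone lists that differed most and carry a motif of their pathway in the 250 bases before the annotated start. They come from RefSeq on GRCm38.p6, read 5′ to 3′ on the strand of the gene, with capitals marking only the motif named for each. Ciart, a repressor of the clock, has 3 E-boxes (CACGTG) that begin 116, 58 and 44 bases before the start (chr3:95882229-95882478, minus strand).
Ciart: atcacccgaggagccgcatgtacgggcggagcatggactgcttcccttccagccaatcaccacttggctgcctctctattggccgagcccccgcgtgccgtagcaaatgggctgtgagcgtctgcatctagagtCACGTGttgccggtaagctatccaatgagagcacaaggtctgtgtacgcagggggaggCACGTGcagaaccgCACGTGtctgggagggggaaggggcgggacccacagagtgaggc
Per3, a clock gene of the Period family, has 2 D-boxes (TTATGTAA) that begin 205 and 158 bases before the start (chr4:151044666-151044915, minus strand).
Per3: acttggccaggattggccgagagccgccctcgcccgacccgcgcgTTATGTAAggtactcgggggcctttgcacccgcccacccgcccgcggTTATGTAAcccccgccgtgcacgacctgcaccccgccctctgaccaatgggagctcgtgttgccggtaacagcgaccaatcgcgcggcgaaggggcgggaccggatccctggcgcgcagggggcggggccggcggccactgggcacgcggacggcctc
Hspa5, the ER chaperone BiP, has an ERSE (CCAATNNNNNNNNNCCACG) that begins 65 bases before the start (chr2:34771840-34772089, plus strand).
Hspa5: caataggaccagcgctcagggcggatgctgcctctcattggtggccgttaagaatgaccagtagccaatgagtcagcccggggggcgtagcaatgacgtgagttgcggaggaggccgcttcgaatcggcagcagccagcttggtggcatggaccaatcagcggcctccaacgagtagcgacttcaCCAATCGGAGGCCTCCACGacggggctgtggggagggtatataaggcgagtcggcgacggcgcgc
Calr, the calcium-binding ER chaperone calreticulin, has an ERSE on the opposite strand that begins 162 bases before the start (chr8:84846932-84847181, minus strand).
Calr: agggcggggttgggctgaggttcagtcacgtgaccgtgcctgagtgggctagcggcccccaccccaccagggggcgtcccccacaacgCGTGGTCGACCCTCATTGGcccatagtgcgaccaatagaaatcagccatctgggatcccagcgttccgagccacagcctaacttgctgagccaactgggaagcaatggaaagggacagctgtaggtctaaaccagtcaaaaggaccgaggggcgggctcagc
Pdia6, an ER protein disulphide isomerase, has an ERSE that begins 98 bases before the start (chr12:17266339-17266588, plus strand).
Pdia6: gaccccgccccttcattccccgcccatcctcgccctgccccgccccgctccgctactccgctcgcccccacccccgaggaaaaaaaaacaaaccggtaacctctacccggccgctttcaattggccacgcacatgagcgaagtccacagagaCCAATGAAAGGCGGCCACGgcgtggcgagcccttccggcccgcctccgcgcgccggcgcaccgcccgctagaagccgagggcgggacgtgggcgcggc

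Both strands were searched for each motif, and no match of one motif shared bases with a match of another. The E-box was in 1978 of all 32851 promoter windows (6.02%), the D-box in 269 (0.819%) and the ERSE in 37 (0.113%). Of the 19 clock genes with a window, 5 held an E-box, namely Bhlhe41, Ciart, Cry1, Per1 and Tef, and 1 held a D-box. The ERSE was in 6 of 27 genes of the stress response list, which are Calr, Canx, Creld2, Hsp90b1, Hspa5 and Pdia6. A gene was counted if any of its windows held the motif, with 28 windows for the 19 clock genes and 30 for the 27. These counts of genes are thus not in the same unit as the shares of windows. These matches describe the letters in the window and say nothing about binding in the tissue. The windows printed were picked by the size of the difference, and other carriers differed less. With desipramine over saline in sham mice, the E-box genes Bhlhe41, Cry1, Per1 and Tef had log2 fold changes of -0.20, 0.09, -0.06 and -0.18. The ERSE genes Canx, Creld2 and Hsp90b1 had 0.04, 0.0019 and 0.11.

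No gene passed the test of desipramine against saline in sham mice. At an adjusted p under 0.05 (edgeR's quasi-likelihood test with Benjamini-Hochberg adjustment, the test behind each p below unless another is named), 0 of 23736 genes were called, or 0.0%. The smallest adjusted p was 0.0599, shared by Spred2 and Spred3, and with Vgf 3 genes were under 0.1 (0.0126%). Unadjusted p was under 0.05 for 1810 genes (7.63%), of which 1028 were higher with desipramine (4.33%) and 782 lower (3.29%). In 206 genes (0.868%) all 4 desipramine libraries lay above all 5 saline libraries, and in 198 (0.834%) they lay below, which makes 404 without overlap (1.7%). With the first library set alone, where both groups had 4 libraries, 330 genes lay above (1.39%) and 350 below (1.47%). DESeq2 called 22 genes, 17 higher (0.0716%) and 5 lower (0.0211%), among them Spred2, Spred3, Vgf, Mpp2, Kyat3, Ciart and Dbp, and limma-voom called 0. In edgeR, leaving out desipramine replicate 4 gave 2 calls (Mpp2 and Kyat3), leaving out saline replicate 2 gave 2 (Nr1d2 and Vgf) and leaving out saline replicate 5 gave 2 (Spred3 and Spred2). The adjusted p of every gene named below in this comparison was at or above 0.0599 and is printed for some of them. Counts of list members below stand against 46.7% of all genes higher with desipramine and 53.3% lower, and against 4.33% higher and 3.29% lower at an unadjusted p under 0.05. The lists were drawn up with earlier results of these data known, so such counts describe the members and are not a test.

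Genes that restrain the RAS-ERK cascade or are transcribed in response to it were mostly higher with desipramine. Spred2 and Spred3 encode membrane proteins that inhibit activation of RAF and recruit neurofibromin. Spred2 (chr11:19924375-20024026, mm10, plus strand) was measured at 92.9, 86.7, 85.9 and 95.8 CPM in desipramine libraries and at 75.7, 69.0, 69.7, 73.2 and 88.7 CPM in saline libraries. All desipramine libraries lay above the 4 saline libraries of the first set, and only saline replicate 5, of the second set, reached into their range. The log2 fold change was 0.31 ± 0.05 (SE, 95% interval 0.20 to 0.42, adjusted p = 0.0599). Spred3 (chr7:29158829-29170411, minus strand) was measured at 71.1, 85.3, 78.8 and 84.1 CPM on desipramine and at 56.6, 51.8, 56.4, 55.2 and 58.2 CPM on saline. The groups did not overlap, and the log2 fold change was 0.50 ± 0.09 (SE, 95% interval 0.32 to 0.68, adjusted p = 0.0599). Within the first library set it was 0.54 for Spred3 (adjusted p = 0.0584) and 0.33 for Spred2 (adjusted p = 0.166). Spred1, the third family member, averaged 139 ± 17.9 CPM on desipramine and 138 ± 31.6 CPM on saline (SD, n = 4 and 5), and its interval of -0.15 to 0.39 holds the value of Spred2.

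Etv5, an ETS transcription factor that ERK signalling induces in many tissues, was measured at 84.5, 91.3, 80.6 and 91.5 CPM on desipramine and at 64.3, 65.5, 63.6, 57.6 and 74.5 CPM on saline. Every desipramine library was above every saline library, with a log2 fold change of 0.46 ± 0.11 (adjusted p = 0.416). Its relative Etv4 was measured at 19.5, 20.5, 19.6 and 16.3 CPM on desipramine and at 14.3, 15.3, 17.8, 13.7 and 14.7 CPM on saline. Here desipramine replicate 4 lay inside the saline range, and the log2 fold change was 0.30 ± 0.10 (adjusted p = 0.547). Dusp4, a phosphatase that inactivates ERK in the nucleus, did not overlap between groups by a narrow margin, at 8.64 to 11.5 CPM on desipramine, against 6.08 to 8.63 CPM in saline libraries (log2 fold change 0.50 ± 0.19, adjusted p = 0.547). Spry4, a Sprouty inhibitor, differed by 0.33 ± 0.15, and Nf1, the RAS GTPase-activating protein neurofibromin, by 0.17 ± 0.07. Of 28 list members tested, 24 had a positive log2 fold change and 4 a negative one, against 46.7% positive and 53.3% negative among all genes. Without the library set as a term the counts were 20 positive and 8 negative. The list score, the mean over members of log2 CPM relative to all libraries, overlapped between groups. Saline replicate 5, of the second set, was at 0.12, above desipramine replicates 2 and 4 at 0.03 and 0.08. The saline libraries of the first set lay below all desipramine libraries. In the main fit 7 members were higher and 0 lower at an unadjusted p under 0.05, with Spred2 and Spred3 among the 7. The list median was 0.12 on the log2 scale, against -0.01 over all genes tested. Without saline replicates 2 and 3 there were 10 higher, and without desipramine replicates 1 and 3 there were 3, with 0 lower each time.

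**Figure D1:**
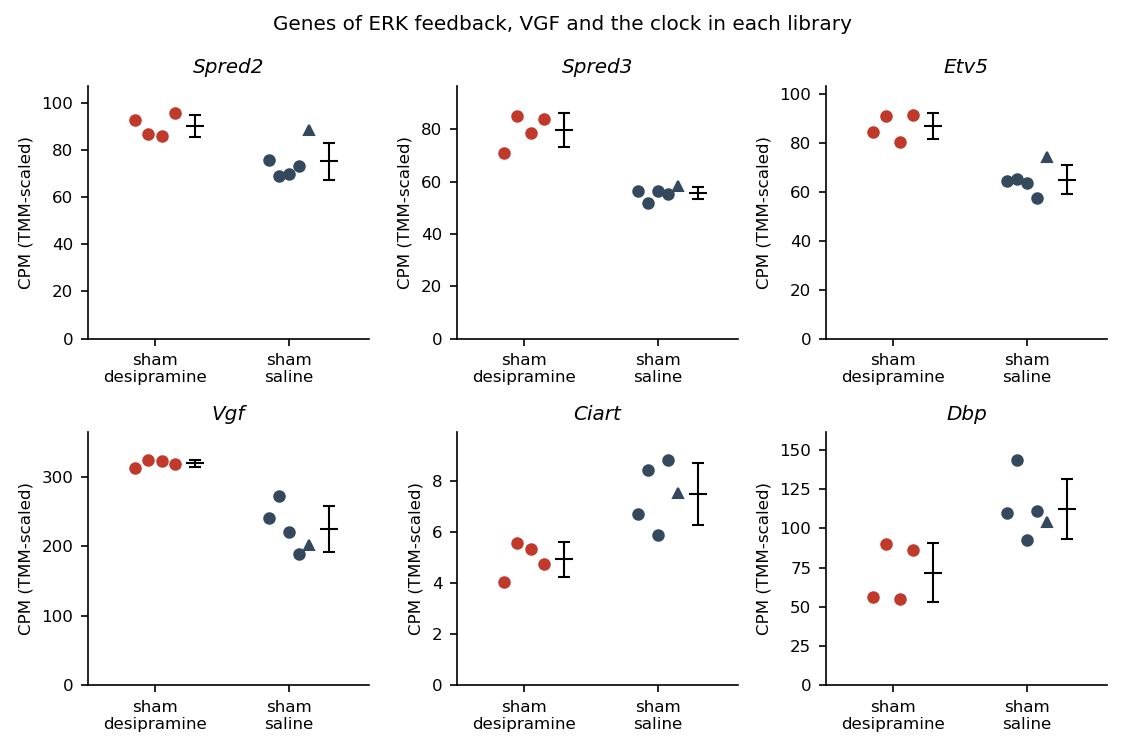
Level in CPM, scaled by TMM, of 6 genes in each of the 4 sham desipramine (red) and 5 sham saline (dark blue) libraries; the triangle is saline replicate 5, of the second library set, and bars are mean ± SD. Spred3, Etv5, Vgf, Ciart and Dbp do not overlap between groups, and Spred2 overlaps only through the triangle.

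Vgf was the third gene by p, with little spread within the desipramine group. It was measured at 312, 324, 323 and 318 CPM on desipramine and at 240, 272, 221, 189 and 202 CPM on saline (chr5:137026392-137033351, plus strand). The groups did not overlap, and the saline libraries spread over a wider range than the desipramine libraries. The log2 fold change was 0.50 ± 0.09 (SE, 95% interval 0.31 to 0.69, adjusted p = 0.0998). Ntrk2, the receptor of brain-derived neurotrophic factor, was measured at 735, 617, 763 and 686 CPM on desipramine and at 612, 606, 610, 589 and 596 CPM on saline. It too did not overlap between groups, by a narrow margin at desipramine replicate 2 (log2 fold change 0.23 ± 0.07, adjusted p = 0.547). The neuronal pentraxin Nptx2, which clusters AMPA receptors, differed by 0.59 ± 0.26.

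Other members of the neurotrophin and granin list had the pattern of the cortical marker. Bdnf was measured at 16.5, 5.82, 15.3 and 0.965 CPM on desipramine and at 2.31, 3.17, 7.76, 3.05 and 4.07 CPM on saline. Desipramine replicates 1 and 3 were the highest of the 9 libraries and replicate 4 the lowest, and the log2 fold change of 1.46 ± 0.75 had an interval of -0.07 to 3.00. Nptxr, the pentraxin receptor, was measured at 632, 248, 774 and 126 CPM on desipramine and at 146, 256, 240, 240 and 183 CPM on saline (log2 fold change 1.17 ± 0.48). Without desipramine replicates 1 and 3 these differences were -0.03 for Bdnf and -0.08 for Nptxr, whereas Vgf stayed at 0.50. Of 23 list members tested, 17 were higher and 6 lower, 4 and 0 of them with an unadjusted p under 0.05, and the median was 0.22. Without those 2 desipramine libraries the counts were 12 higher and 11 lower, with a median of 0.01.

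Clock genes differed in both directions. Ciart and Dbp, which are driven through E-boxes, were lower with desipramine. Ciart (chr3:95878503-95882251, minus strand), whose promoter is printed above, was measured at 4.05, 5.57, 5.34 and 4.74 CPM on desipramine and at 6.69, 8.41, 5.87, 8.83 and 7.53 CPM on saline. The groups did not overlap, and the log2 fold change was -0.61 ± 0.13 (SE, 95% interval -0.87 to -0.34, adjusted p = 0.23). Dbp (chr7:45705088-45710203, plus strand), the transcription factor that acts at D-boxes, was measured at 56.0, 89.9, 55.2 and 86.1 CPM on desipramine and at 110, 144, 92.6, 111 and 104 CPM on saline. It was lowest in desipramine replicates 1 and 3, yet replicates 2 and 4 were also under every saline library (log2 fold change -0.67 ± 0.16, adjusted p = 0.416). Without replicates 1 and 3 the difference was -0.37.

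Per3, whose promoter holds the D-boxes, was measured at 38.2, 53.0, 35.8 and 43.5 CPM on desipramine and at 57.3, 46.4, 55.0, 50.7 and 56.3 CPM on saline. Desipramine replicate 2 lay within the saline range (log2 fold change -0.29 ± 0.10, adjusted p = 0.547). Nr1d2, the nuclear receptor REV-ERB-beta that represses Arntl, was measured at 92.7, 97.3, 83.7 and 95.7 CPM on desipramine and at 127, 86.4, 119, 124 and 149 CPM on saline. Saline replicate 2 was the only saline library in the desipramine range, and without it the adjusted p was 0.0113, against 0.529 with it (log2 fold change -0.32 ± 0.08). Rora, a nuclear receptor that activates Arntl, differed by -0.26 ± 0.11. Arntl, which encodes BMAL1, was higher, with 62.6, 64.0, 59.2 and 71.9 CPM on desipramine and 53.2, 45.8, 45.5, 57.2 and 52.7 CPM on saline. Its groups did not overlap (log2 fold change 0.34 ± 0.13, adjusted p = 0.547). Per2 differed by 0.22 ± 0.13 (interval -0.05 to 0.49). Of 25 clock genes, 14 were higher and 11 lower, 2 and 6 with an unadjusted p under 0.05, and the list median of 0.02 was near that of all genes. The time of day at which tissue was taken is not given in the sources used here.

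Several chaperones of the ER were higher with desipramine, while the list of stress response genes as a whole had members on both sides. Hspa5 was measured at 245, 269, 213 and 202 CPM on desipramine and at 193, 186, 198, 156 and 159 CPM on saline. The groups did not overlap, though saline replicate 3 came close to desipramine replicate 4 (log2 fold change 0.33 ± 0.11, adjusted p = 0.547). Pdia6 was measured at 95.1, 102, 91.2 and 93.8 CPM on desipramine and at 80.2, 87.1, 84.3, 75.1 and 70.5 CPM on saline, again without overlap (log2 fold change 0.22 ± 0.08, adjusted p = 0.547). Calr was measured at 298, 341, 303 and 282 CPM on desipramine and at 265, 298, 276, 247 and 217 CPM on saline. Saline replicate 2 lay within the desipramine range (log2 fold change 0.19 ± 0.07, adjusted p = 0.547).

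Manf, a secreted ER stress-induced factor, lay between 89.0 and 91.5 CPM on desipramine, against 76.8 to 86.5 CPM in saline libraries, with no overlap and a small difference of 0.11 ± 0.04. Xbp1, the transcription factor of the response, differed by 0.19 ± 0.09. Hsp90b1, an ER chaperone with the ERSE, averaged 204 ± 6.77 CPM on desipramine and 181 ± 18.5 CPM on saline, a difference of 0.11 ± 0.09 (interval -0.08 to 0.30). Psat1, an enzyme of serine synthesis under control of ATF4, was lower by the fit (-0.17 ± 0.07). Over the 30 members, 16 were higher and 14 lower, 5 and 1 with an unadjusted p under 0.05, and the median was 0.02, against -0.01 over all genes. Without desipramine replicates 1 and 3 the differences of Hspa5, Calr and Pdia6 were 0.35, 0.22 and 0.25, and without saline replicates 2 and 3 they were 0.36, 0.26 and 0.26.

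**Figure D2:**
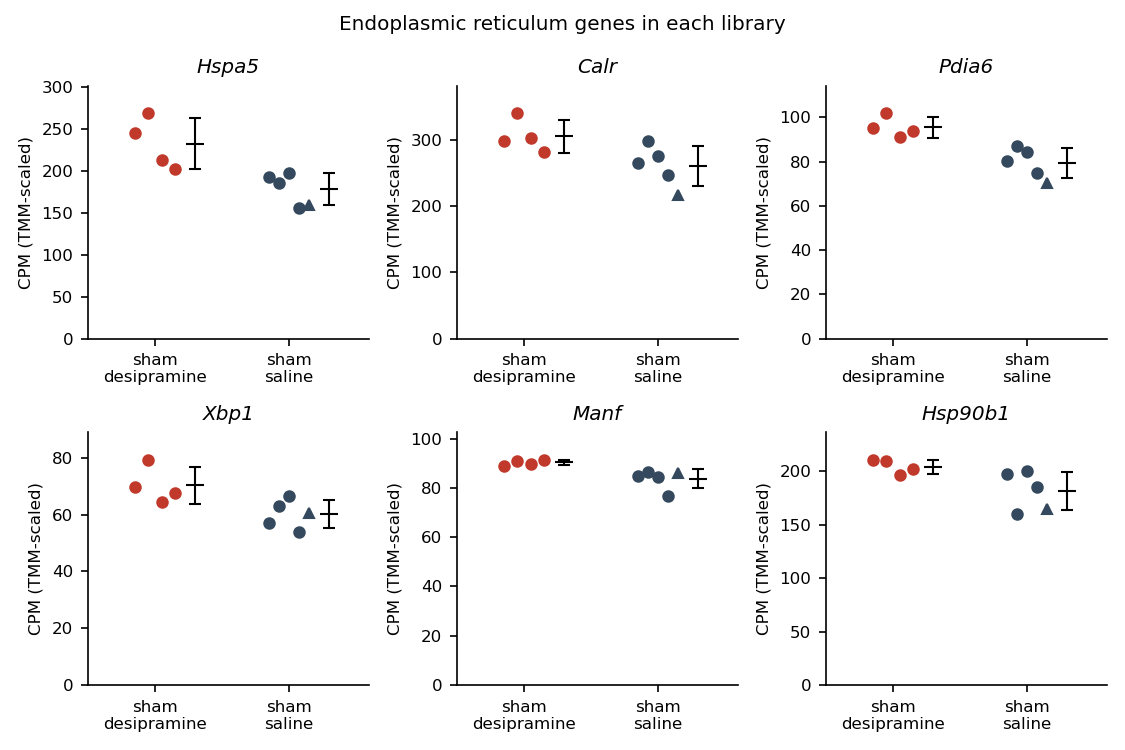
Level in CPM, scaled by TMM, of 6 genes of the endoplasmic reticulum and unfolded protein response in each of the 4 sham desipramine (red) and 5 sham saline (dark blue) libraries; the triangle is saline replicate 5, of the second library set, and bars are mean ± SD. Hspa5, Pdia6 and Manf do not overlap between groups, whereas Calr, Xbp1 and Hsp90b1 do.

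Most synaptic genes had a positive difference, several of them in desipramine replicates 1 and 3 mainly. Mpp2, a postsynaptic scaffold of the membrane-associated guanylate kinase family, was measured at 181, 171, 187 and 148 CPM on desipramine and at 135, 150, 134, 128 and 145 CPM on saline. Desipramine replicate 4 was just under the highest saline library, and the log2 fold change was 0.32 ± 0.06 (SE, adjusted p = 0.169). Shank2, a scaffold of excitatory synapses, was measured at 276, 242, 275 and 226 CPM on desipramine and at 210, 202, 215, 199 and 206 CPM on saline. Its groups did not overlap (log2 fold change 0.34 ± 0.10, adjusted p = 0.547). Shank1 was measured at 545, 453, 624 and 324 CPM on desipramine and at 338, 329, 410, 313 and 319 CPM on saline. It was high in desipramine replicates 1 to 3 and within the saline range in replicate 4 (log2 fold change 0.55 ± 0.19, adjusted p = 0.547).

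The scaffold list had 26 members higher and 4 lower of 30 (all genes 46.7% and 53.3%), with 7 and 0 at an unadjusted p under 0.05 (all genes 4.33% and 3.29%) and a median of 0.12. Its score, the mean over members of log2 CPM relative to all libraries, was 0.24, 0.19, 0.23 and 0.16 on desipramine and 0.09, 0.11, -0.02, 0.08 and 0.09 on saline. All 4 desipramine libraries were above all 5 saline libraries. Scores were made for 38 lists, and the groups overlapped in the score of every other list. Homer2 (log2 fold change 1.06 ± 0.48) and Dlgap1 (0.66 ± 0.29) followed the cortical marker, with differences of -0.16 and -0.05 without desipramine replicates 1 and 3. With the oligodendrocyte marker score as a covariate the scaffold list had 15 members higher and 15 lower and a median of 0.01.

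Among 25 synaptic vesicle genes, 19 were higher and 6 lower (all genes 46.7% and 53.3%), with 9 and 0 at an unadjusted p under 0.05 (all genes 4.33% and 3.29%) and a median of 0.17. Unc13a, the vesicle priming protein Munc13-1, was measured at 493, 591, 546 and 553 CPM on desipramine and at 455, 493, 397, 523 and 420 CPM on saline. Saline replicate 4 lay within the desipramine range and replicate 2 at its lower edge (log2 fold change 0.26 ± 0.09, adjusted p = 0.547). Syn1, the vesicle phosphoprotein synapsin 1, was measured at 485, 398, 565 and 321 CPM on desipramine and at 321, 377, 334, 320 and 325 CPM on saline, so that replicate 4 was at the saline level (log2 fold change 0.43 ± 0.15, adjusted p = 0.547). Vamp2, the vesicle SNARE synaptobrevin 2, differed by 0.24 ± 0.07, and Pclo, an active zone protein, by 0.22 ± 0.08. Without desipramine replicates 1 and 3 the vesicle list had 15 genes higher and 10 lower, 1 with an unadjusted p under 0.05, and a median of 0.02.

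Receptor lists differed in their counts. Of 28 AMPA, kainate and NMDA receptor genes and their partners, 19 were higher and 9 lower, 4 and 0 with an unadjusted p under 0.05, and the median was 0.11. The GABA list had 12 higher and 9 lower with a median of 0.02. Metabotropic glutamate receptors had 3 higher and 4 lower with a median of -0.07, and the dopamine and serotonin list 9 higher and 12 lower with a median of -0.09. Cnih3, an auxiliary AMPA receptor protein, was measured at 71.6, 34.9, 94.5 and 23.3 CPM on desipramine and at 23.5, 24.5, 36.1, 18.2 and 27.5 CPM on saline, again high in replicates 1 and 3 (log2 fold change 1.21 ± 0.43, adjusted p = 0.547). Gria1, an AMPA receptor subunit, averaged 1040 ± 76.7 CPM on desipramine and 925 ± 101 CPM on saline (log2 fold change 0.15 ± 0.10, interval -0.05 to 0.36). Gabra5, a GABA-A receptor subunit, was measured at 31.0, 26.3, 32.6 and 34.6 CPM on desipramine and at 23.5, 23.1, 21.2, 26.1 and 27.6 CPM on saline. Only saline replicate 5 entered the desipramine range (log2 fold change 0.35 ± 0.12, adjusted p = 0.547). Gabbr2, of the GABA-B receptor, followed the cortical marker, at 246, 161, 276 and 139 CPM on desipramine, against 132 to 159 CPM in saline libraries (0.55 ± 0.18).

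**Figure D3:**
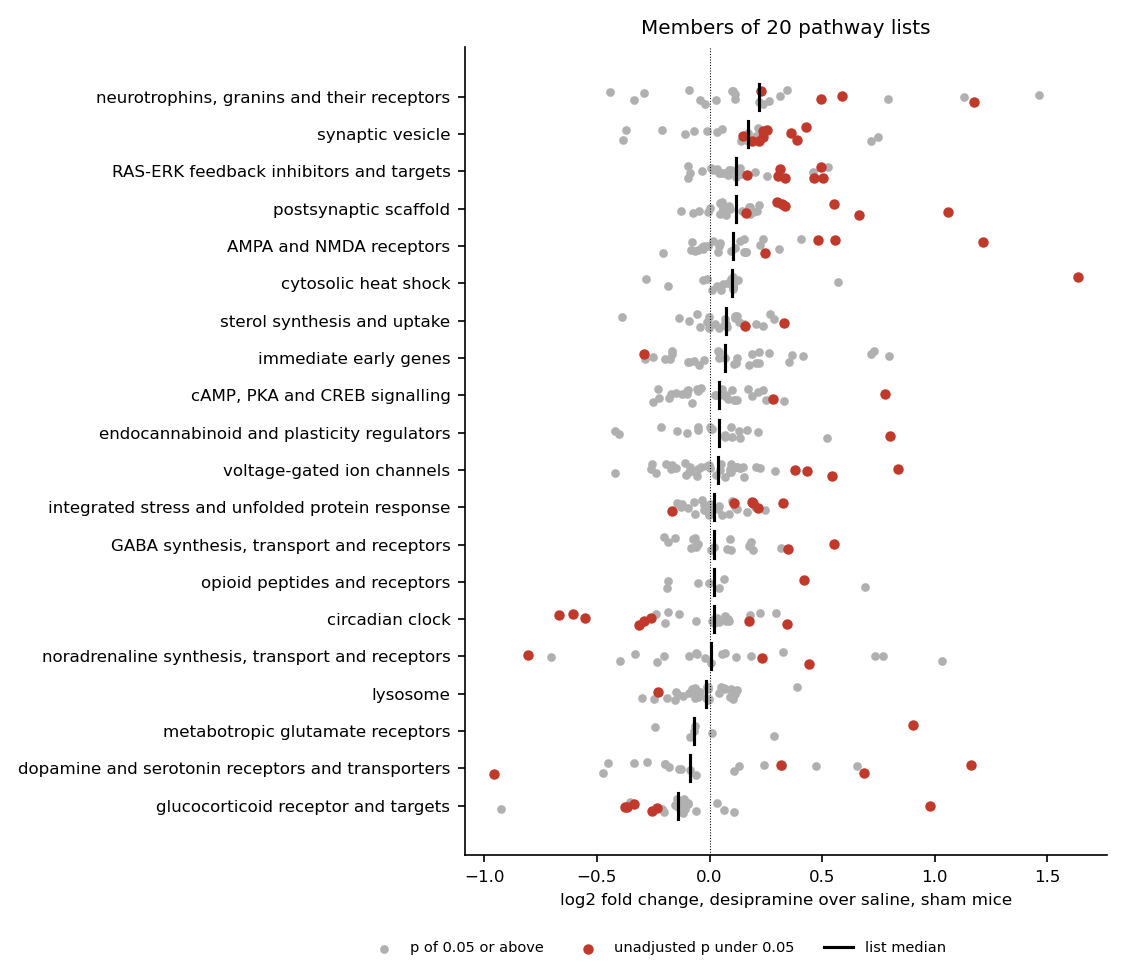
Log2 fold change of desipramine over saline in sham mice for each tested member of 20 pathway lists, 1 point a gene; red points have an unadjusted p under 0.05 and black bars are list medians. The neurotrophin, vesicle, RAS-ERK and scaffold lists have medians between 0.12 and 0.22 and the glucocorticoid list -0.14, against -0.01 over all genes; no point passed the adjusted threshold.

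In the drug's own target system, genes differed in both directions, from -0.81 to 1.03 on the log2 scale. Slc6a2, the noradrenaline transporter, whose mRNA is made in cell bodies outside the accumbens, reached only 28 counts in the 30 libraries together and was too low to test. Of 21 genes of noradrenaline synthesis, transport and reception, 11 were higher and 10 lower, 2 and 1 with an unadjusted p under 0.05, and the median was 0.01. The receptor kinases Grk2 and Grk3, which desensitise adrenoceptors and other receptors, differed by 0.23 ± 0.09 and 0.44 ± 0.19. Slc22a3, an extraneuronal transporter of monoamines, was measured at 6.72, 8.96, 5.38 and 7.93 CPM on desipramine and at 15.9, 15.9, 8.31, 16 and 7.87 CPM on saline. Saline replicates 1, 2 and 4 stood above all desipramine libraries, whereas replicates 3 and 5 did not (log2 fold change -0.81 ± 0.37, adjusted p = 0.629).

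Adra2a, the alpha-2A adrenoceptor, was measured at 28.0, 10.6, 35.7 and 4.15 CPM on desipramine and at 7.32, 8.89, 19.7, 5.27 and 8.93 CPM on saline. It had the cortical pattern, and its interval of -0.15 to 2.22 includes no difference (log2 fold change 1.03 ± 0.58). Adra1d differed by 0.77 ± 0.40 (interval -0.05 to 1.6). The other adrenoceptor genes lay between -0.70 ± 0.44 (Adra2b) and 0.12 ± 0.13 (Adrb1). Oprm1, the mu-opioid receptor, was measured at 92.3, 63.7, 84.2 and 73.1 CPM on desipramine and at 61.8, 35.9, 66.9, 51.5 and 97.9 CPM on saline. The highest value was that of saline replicate 5, in the second library set, and the fit with library set as a term gave a log2 fold change of 0.42 ± 0.16 (adjusted p = 0.56). Htr2c, the serotonin 2C receptor, differed by 0.32 ± 0.12. The dopamine receptors Drd1 and Drd2, which divide medium spiny neurons into the direct and indirect pathways, differed by -0.34 ± 0.38 (interval -1.12 to 0.45) and -0.18 ± 0.35 (interval -0.89 to 0.53). Tph2 and Slc6a3, of serotonin synthesis and dopamine uptake, differed by -0.96 ± 0.36 and 1.16 ± 0.41, at levels of at most 1.23 CPM.

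The list of the glucocorticoid receptor, which binds the stress hormone corticosterone, and its targets had mostly lower members with desipramine. Of 24, 4 were higher and 20 lower (all genes 46.7% and 53.3%), 1 and 5 with an unadjusted p under 0.05 (all genes 4.33% and 3.29%), and the median was -0.14. Ddit4, an inhibitor of mTORC1, was measured at 32.0, 27.3, 31.9 and 32.6 CPM on desipramine and at 37.0, 47.8, 43.4, 30.1 and 37.5 CPM on saline. Saline replicate 4 was the only saline library inside the desipramine range (log2 fold change -0.38 ± 0.11, adjusted p = 0.547). Sgk1, a serum- and glucocorticoid-regulated kinase, differed by -0.33 ± 0.16, and Klf15, a transcription factor, by -0.25 ± 0.12. Cdkn1a, the cell cycle inhibitor p21, lay between 10.5 and 15.9 CPM on desipramine, against 16 to 22.1 CPM in saline libraries (-0.37 ± 0.16). Fkbp5, the receptor's co-chaperone, differed by -0.12 ± 0.15 (interval -0.43 to 0.19). Zbtb16 had the largest positive difference, at 14.8, 7.97, 18.7 and 7.34 CPM on desipramine and 4.21, 4.84, 8.95, 7.44 and 8.03 CPM on saline, with replicates 1 and 3 apart from the rest (0.98 ± 0.34). Without saline replicates 2 and 3 the list had 9 members higher and 15 lower, 2 and 0 with an unadjusted p under 0.05.

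Further pathway lists had members on both sides. Of 31 immediate early genes, 19 were higher and 12 lower, and Fosl1 alone had an unadjusted p under 0.05. Fosl1, a Fos-related transcription factor, was measured at 5.46, 5.76, 5.67 and 5.58 CPM on desipramine and at 6.60, 7.25, 6.23, 6.52 and 7.57 CPM on saline, without overlap (log2 fold change -0.29 ± 0.10, adjusted p = 0.547). Of 25 genes of sterol synthesis and uptake, 17 were higher and 8 lower, and Srebf2, the transcription factor that drives them, differed by 0.16 ± 0.07. Of 33 lysosomal genes, 11 were higher and 22 lower, with Npc2, a cholesterol carrier, at -0.23 ± 0.09. In the cytosolic heat shock list of 20, 16 were higher and 4 lower, 1 and 0 with an unadjusted p under 0.05, and the median was 0.10. Hspa1b, an inducible HSP70 with a near-identical neighbouring copy whose reads the counting may divide, differed by 1.64 ± 0.54. Its levels were 5.93, 3.79, 6.51 and 0.545 CPM on desipramine and 1.01, 1.17, 2.69, 1.3 and 2.01 CPM on saline, with desipramine replicate 4 the lowest of all.

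Outside the lists, the genes of smallest p were varied in function. Arhgdia was measured at 267, 272, 288 and 258 CPM on desipramine and at 212, 250, 229, 206 and 209 CPM on saline, without overlap (log2 fold change 0.26 ± 0.06, adjusted p = 0.23). Fmnl1, a formin that assembles actin filaments, was measured at 113, 111, 126 and 91.4 CPM on desipramine and at 65.2, 81.8, 74.0, 75.7 and 70.8 CPM on saline. Its groups did not overlap, and its difference of 0.61 ± 0.14 was the largest among the 12 higher genes of smallest p (adjusted p = 0.367). Ap2b1, of the AP-2 clathrin adaptor, differed by 0.26 ± 0.06 and Ptprf, a receptor tyrosine phosphatase of synapses, by 0.21 ± 0.05, both without overlap. Plpp6 and Ppp1r10, a lipid phosphatase and a nuclear regulator of protein phosphatase 1, did not overlap either, at 0.49 ± 0.11 and 0.24 ± 0.06. Tmem8b, a membrane protein, differed by 0.31 ± 0.08.

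Among the lower genes, Kyat3, which makes kynurenic acid from kynurenine, was measured at 5.02, 5.69, 5.05 and 7.26 CPM on desipramine and at 9.04, 8.92, 6.90, 8.83 and 7.61 CPM on saline. Desipramine replicate 4 was above saline replicate 3 and below the other saline libraries (log2 fold change -0.57 ± 0.12, adjusted p = 0.23). Ppp1r3c, which targets protein phosphatase 1 to glycogen, was measured at 22.8, 29.5, 23.7 and 28.3 CPM on desipramine and at 32.0, 36.2, 37.3, 30.4 and 31.6 CPM on saline, without overlap (-0.38 ± 0.09, adjusted p = 0.392). Prodh, of proline breakdown, Polk, a DNA polymerase, and Samhd1, a nucleotide hydrolase, differed by -0.28 ± 0.08, -0.21 ± 0.06 and -0.26 ± 0.07, each with an adjusted p of 0.547. Gp1ba, Zfp607a, Tnni3 and Fbxo48 did not overlap between groups, but none of them exceeded 3.25 CPM in any of the 9 libraries. Their differences were -0.72 ± 0.16, -0.59 ± 0.13, -1.20 ± 0.30 and -0.52 ± 0.13 in that order.

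The largest fold changes belonged to genes that varied within groups. C1ql3, a secreted synaptic organiser, was measured at 48.7, 9.30, 63.4 and 2.27 CPM on desipramine and at 5.80, 2.95, 13.5, 3.33 and 13.8 CPM on saline (log2 fold change 2.35 ± 0.83, adjusted p = 0.547). Pter (1.97 ± 0.69), Bmp3 (2.11 ± 0.88) and Slc26a4 (2.22 ± 0.97) had the same profile. All 4 genes were highest in desipramine replicate 3 and next highest in replicate 1, the order also of Slc17a7. What part cortical tissue has in these differences was not tested. Tnnt1, slow skeletal troponin T, was measured at 1.06, 2.92, 0.972 and 0.797 CPM on desipramine and at 13.1, 21.3, 4.02, 13.8 and 2.60 CPM on saline. Saline replicates 1, 2 and 4 were far above all others, and only replicate 5 reached the desipramine range (log2 fold change -2.91 ± 0.89, adjusted p = 0.547). Pvalb, of fast-spiking interneurons, was also high in those 3 saline libraries, at 11.8, 24 and 13 CPM, against 5.02 to 6.65 CPM on desipramine (log2 fold change -1.07 ± 0.44). Gpr139, an orphan receptor, differed by -1.34 ± 0.56. Gbp2 and Spp1, an interferon-induced GTPase and the secreted protein osteopontin, differed by -1.57 ± 0.55 and -1.38 ± 0.61, with single saline libraries at 22.2 and 26.0 CPM. Without saline replicate 3 the difference of Spp1 was -0.37.

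Marker lists showed which cell types moved with these values. In a punch, fewer cells of a type and less RNA per cell cannot be told apart. The cortical excitatory neuron score was 1.22, 0.56, 1.46 and -0.69 on desipramine and 0.14, 0.49, 0.68, 0.24 and 0.58 on saline. The desipramine libraries thus held both the highest and the lowest values, and 16 of 20 markers were higher and 4 lower, 0 with an unadjusted p under 0.05. The medium spiny neuron score was -0.02, 0.33, -0.38 and 0.53 on desipramine and 0.50, 0.34, 0.04, 0.30 and 0.33 on saline, low where the cortical score was high. Of its 24 markers, 3 were higher and 21 lower, and Gpr149 alone had an unadjusted p under 0.05 (-0.60 ± 0.28). Without desipramine replicates 1 and 3 those counts were 21 higher and 3 lower. With the cortical score as a covariate edgeR called 4 genes, Spred3, Spred2, Fmnl1 and Mpp2, all higher.

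All 24 oligodendrocyte and myelin markers were lower with desipramine (all genes 53.3%), 5 with an unadjusted p under 0.05 (all genes 3.29%), and their median was -0.24. Mog, a protein of the myelin surface, was measured at 36.5, 63.9, 41.8 and 46.2 CPM on desipramine and at 55.4, 66.3, 55.2, 68.1 and 56.4 CPM on saline (log2 fold change -0.40 ± 0.16, adjusted p = 0.552). Desipramine replicate 2 was at the saline level and the other replicates under it. Opalin and Cldn11, other myelin genes, differed by -0.37 ± 0.14 and -0.31 ± 0.12. Without desipramine replicates 1 and 3 the list had 9 markers higher and 15 lower and a median of -0.03. Astrocyte markers were higher for 2 and lower for 18 of 20. Only Aldh1l1 at -0.22 ± 0.09 and S100b at -0.34 ± 0.14 had an unadjusted p under 0.05. The astrocyte score was -0.183 to -0.023 on desipramine, within the saline range of -0.297 to 0.239. Saline replicate 5, of the second library set, had the lowest score.

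Interferon-induced genes were mostly lower with desipramine, and they moved with 2 saline libraries. Of 25, 2 were higher and 23 lower (all genes 46.7% and 53.3%), 0 and 8 with an unadjusted p under 0.05 (all genes 4.33% and 3.29%), and the median was -0.37. The score was 0.02, 0.03, 0.06 and -0.32 on desipramine and -0.33, 0.73, 0.81, 0.15 and -0.16 on saline, so that saline replicates 2 and 3 stood above all other libraries. Gbp3, a guanylate-binding GTPase, was measured at 4.29, 3.48, 2.69 and 2.89 CPM on desipramine and at 2.90, 21.1, 6.59, 6.77 and 3.45 CPM on saline (log2 fold change -1.27 ± 0.39, adjusted p = 0.547). Igtp, another interferon-induced GTPase, differed by -1.32 ± 0.44, and in it too saline replicate 2 was the highest library, at 14.2 CPM. Without that library the difference was -0.34 for Igtp and -0.54 for Gbp3. Leaving out saline replicates 2 and 3 gave 17 genes higher and 8 lower, 1 and 0 with an unadjusted p under 0.05, and a median of 0.11. Without saline replicate 2 alone the counts were 1 higher and 24 lower with 0 under 0.05. That library also stood at the edge of the lists that bear on RNA quality. Its score of mitochondrial transcripts was -0.72, against -0.115 to 0.228 on desipramine, with saline replicate 5 at -0.628. Its score of nuclear long noncoding RNAs was -0.305, against -0.082 to 0.141 on desipramine. Its score of cytosolic ribosomal proteins was 0.252, against -0.137 to 0.131 on desipramine.

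Saline replicate 3 also had the highest score of fibroblasts and meninges, at 2.48, against -0.57 to 1.21 on desipramine and -0.66 to 0.35 in the other saline libraries. Its score of peripheral immune cells was 1.55, against -0.12 to 0.44 on desipramine and -0.32 to 0.69 in the other saline libraries. The fibroblast list had 17 of 18 markers lower with desipramine, and without saline replicates 2 and 3 all 18 were higher. Blood markers were highest in desipramine replicate 4, at 1.08, against -0.23 to 0.27 in the other desipramine libraries and -0.45 to 0.14 on saline. All 5 were higher with desipramine, with Hbb-bs, a haemoglobin chain, at 0.58 ± 0.22 and Alas2, of haem synthesis in red cells, at 0.44 ± 0.15.

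**Figure D4:**
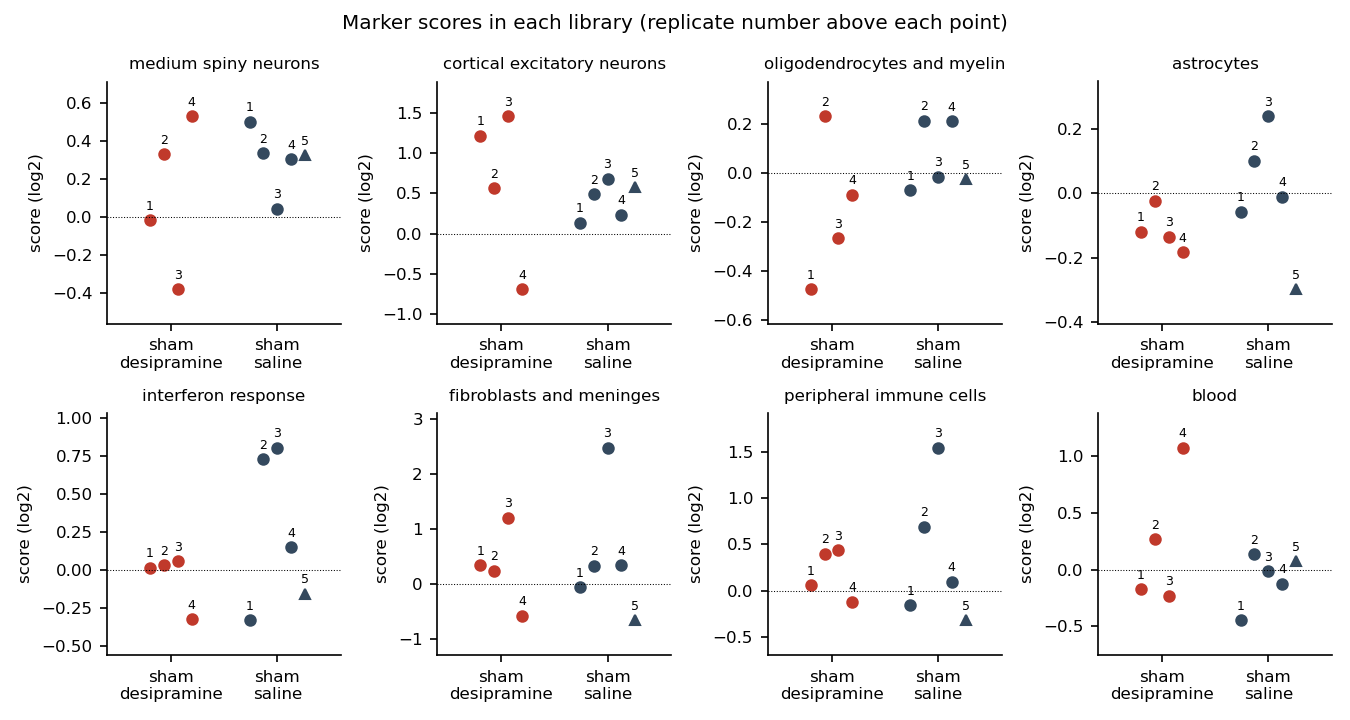
Score of 8 marker lists, the mean over members of log2 CPM relative to all 30 libraries, in each sham desipramine (red) and sham saline (dark blue) library, numbered by replicate; the triangle is saline replicate 5, of the second library set. Desipramine replicates 1 and 3 are high and replicate 4 low for cortical neurons, and saline replicates 2 and 3 are high for the interferon response.

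Interneuron markers differed in both directions, with Pvalb lower as given above. Of 15 markers of cholinergic neurons and interneurons, 6 were higher and 9 lower, 4 and 1 with an unadjusted p under 0.05. The list median was -0.06. Npy, the neuropeptide of a set of striatal interneurons, was measured at 48.2, 55.8, 65.9 and 62.3 CPM on desipramine and at 34.3, 50.6, 38.9, 40.2 and 35.5 CPM on saline, with only saline replicate 2 reaching into the desipramine range (log2 fold change 0.48 ± 0.16, adjusted p = 0.547). Sst, made by the same cells, differed by 0.25 ± 0.11. Cort, of a cortical and striatal interneuron class, differed by 1.52 ± 0.59 and was highest in desipramine replicates 1 and 3, at 7.31 and 8.75 CPM.

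The same drug against saline in SNI mice used other animals. There, too, edgeR called 0 of 23736 genes (0.0%), with 2531 genes higher (10.7%) and 1617 lower (6.81%) at an unadjusted p under 0.05. DESeq2 called 555, and edgeR called 3352 without SNI desipramine replicate 4. Of the 12 higher genes of smallest p in sham mice, 9 had a positive difference in SNI mice, and 4 of them, Spred2, Spred3, Vgf and Ptprf, had an unadjusted p under 0.05. Of the 12 lower genes, 9 were negative in SNI mice, 3 of them, Ciart, Dbp and Fbxo48, with an unadjusted p under 0.05. All 12 higher genes had a smaller difference in SNI than in sham mice, and 10 of the 12 lower genes did, where the sham differences had chosen the genes. Among the 50 higher genes of smallest p in sham mice, 30 had the same sign in SNI mice and 5 also an unadjusted p under 0.05, against 51.0% and 10.7% of all genes. Among the 50 lower genes, 29 had the same sign and 7 an unadjusted p under 0.05, against 49.0% and 6.81% of all genes. Over all genes tested, 52.5% had the same sign in both surgeries.

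Dbp in SNI mice was measured at 70.0, 41.7, 56.6 and 77.2 CPM on desipramine and at 120, 105, 94.8, 102 and 102 CPM on saline, without overlap (log2 fold change -0.80 ± 0.16, adjusted p = 0.0564). Ciart was measured there at 6.37, 5.19, 6.38 and 5.15 CPM on desipramine and at 9.22, 6.99, 6.85, 9.36 and 8.37 CPM on saline, again without overlap (-0.51 ± 0.13, adjusted p = 0.0881). For both genes the difference between SNI and sham was within its error, at -0.13 for Dbp and 0.10 for Ciart. Vgf was measured there at 248, 219, 261 and 291 CPM on desipramine and at 204, 226, 202, 220 and 214 CPM on saline, with SNI desipramine replicate 2 inside the saline range (0.24 ± 0.09, adjusted p = 0.181). Spred3 differed by 0.20 ± 0.09 (adjusted p = 0.226) and Spred2 by 0.18 ± 0.05 (adjusted p = 0.109). Etv5 differed by 0.01 ± 0.11 in SNI mice. Calr differed by 0.19 in SNI mice too, and Hspa5 by 0.25 ± 0.11.

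The test of the difference between surgeries called 0 genes (0.0%), with 2916 at an unadjusted p under 0.05 (12.3%) and 100 called by DESeq2. Leaving out sham saline replicate 2 gave 20 calls and leaving out SNI desipramine replicate 4 gave 957. Npy and Rora were among the genes above whose direction differed between sham and SNI mice. Npy in SNI mice was measured at 41.7, 25.4, 27.6 and 42.3 CPM on desipramine and at 46.1, 58.8, 51.0, 46.6 and 45.6 CPM on saline, the opposite of its direction in sham mice (difference between surgeries -1.08 ± 0.23, adjusted p = 0.227). Rora was higher in SNI mice, by 0.47 ± 0.11 (difference between surgeries 0.73 ± 0.16, adjusted p = 0.227). Mpp2 was at -0.05 ± 0.06 in SNI mice (difference between surgeries -0.38 ± 0.09, adjusted p = 0.227). Marker scores also differed among the SNI libraries. The medium spiny neuron score was -0.25, -2.32, -0.74 and 0.41 on desipramine and -0.37 to 0.37 on saline. The score of septal, preoptic, hypothalamic and thalamic neurons, a list that holds Rora, was 0.22, 0.97, 0.97 and -0.12 on desipramine and -0.50 to 0.22 on saline. Npy was lowest in SNI desipramine replicates 2 and 3, where the first score was lowest and the second highest, and the part of these shifts in the differences was not tested.

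**Figure D5:**
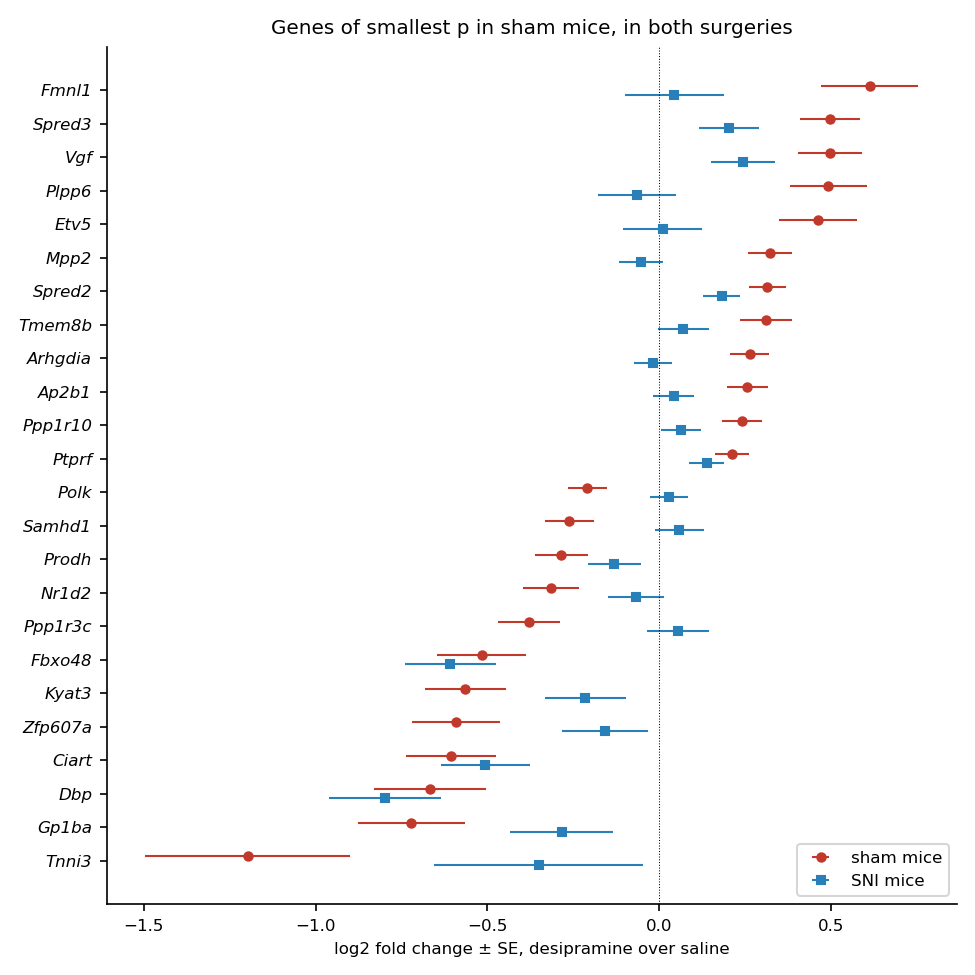
Log2 fold change of desipramine over saline, with SE, in sham mice (red circles) and SNI mice (blue squares) for the 12 higher and 12 lower genes of smallest p in sham mice. The sham values chose the genes, so only the SNI values are read; Spred2, Spred3, Vgf, Ptprf, Ciart, Dbp and Fbxo48 keep their direction with an unadjusted p under 0.05.

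Desipramine was last set against tianeptine in sham mice, where edgeR called 17 genes, 11 higher with desipramine (0.0463%) and 6 lower (0.0253%). Ciart had the smallest adjusted p of them. It was measured at 4.05, 5.57, 5.34 and 4.74 CPM on desipramine and at 9.73 to 12.3 CPM, with a median of 11, on tianeptine. The groups did not overlap, and the log2 fold change was -1.17 ± 0.13 (SE, adjusted p = 3.8e-05). Against the shared saline libraries Ciart differed by -0.61 ± 0.13 with desipramine and by 0.56 ± 0.11 with tianeptine (adjusted p = 0.714). Nr1d2 and Dbp were also lower with desipramine than with tianeptine, by 0.49 and 0.80 on the log2 scale (adjusted p = 0.0106 and 0.048). Arntl was higher than with tianeptine by 0.66 (adjusted p = 0.0267), and higher than with saline by at most 0.42 in any processing alternative.

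Genes of the RAS-ERK list and Vgf rose against tianeptine. The comparisons with saline and with tianeptine share the same 4 desipramine libraries, so they are not independent. Vgf was measured at 312 to 324 CPM on desipramine and at 184 to 248 CPM, with a median of 219, on tianeptine (log2 fold change 0.54 ± 0.09, adjusted p = 0.011). Spred2 rose by 0.30 ± 0.05 (adjusted p = 0.013), Spred3 by 0.43 ± 0.08 (adjusted p = 0.0378) and Etv5 by 0.60 ± 0.11 (adjusted p = 0.0267). Tianeptine itself differed from the same saline libraries by 0.01 ± 0.05 for Spred2, 0.06 ± 0.08 for Spred3 and -0.04 ± 0.08 for Vgf. Calr rose by 0.40 ± 0.06 (adjusted p = 0.0106), with Fmnl1 at 0.71, Unc13a at 0.47 and Kdr, the endothelial receptor of vascular growth factor, at 0.78 among the other higher genes. Against saline these differences were smaller, at most 0.26 for Calr, 0.32 for Unc13a and 0.38 for Kdr in any processing alternative. Part of each thus lay between tianeptine and saline. Atp6v0a1, of the vacuolar proton pump, and Tubd1, delta-tubulin, rose by 0.25 and 0.48, and Zfp607a and Blm, a DNA helicase, fell by 0.76 and 0.44. Within the first library set, Ciart alone of the 17 passed (adjusted p = 0.00164), with Vgf at an adjusted p of 0.0732, Spred2 at 0.074 and Etv5 at 0.0891. Leaving out single libraries of the 2 groups gave 4 to 38 calls.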

How the data were processed

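Polyadenylated RNA of 30 accumbens libraries, each from 1 mouse, was measured. Per the submitters' processing notes, the authors trimmed reads with Trim Galore, aligned them to mm10 with HISAT2, handled them with SAMtools and counted them with featureCounts, and deposited whole-number counts for 55401 gene IDs. No source used here names versions, annotation release or strand setting, so genes that overlap on opposite strands are less certain. IDs were named from GENCODE M21 (54349 exact matches, 792 without the version, 260 unmatched with 0.0509% of counts). The deposited FPKM table was not used. No sham desipramine or sham saline library was a near copy of another of its group (smallest chi-square per degree of freedom 7.56).

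Genes were kept by filterByExpr (23736 genes, 99.925% of counts) and normalised by TMM, the trimmed mean of M values. A robust quasi-likelihood model was fitted in edgeR 4.0.16 (R 4.3.3, limma 3.58.1) to all 30 libraries, where each group had a coefficient and the library set, read from the library names, had another (23 residual degrees of freedom, common biological coefficient of variation 17.5%). Tests were 2-sided, with Benjamini-Hochberg adjustment across all genes tested. DESeq2 1.42.0 and limma-voom were alternatives. List scores used log2 CPM with 0.5 added. The script was tested on simulated data. Replicates are separate animals.

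Named genes were the 12 higher and 12 lower of smallest p, the 4 higher and 4 lower of largest fold change with an unadjusted p under 0.05 and a mean log2 CPM of at least 1, up to 12 genes called by DESeq2, up to 4 members per list of smallest p, and preset receptor and drug response genes. Predicted models were left out. Further list members with an unadjusted p under 0.05, and the genes called against tianeptine, were named after their values were seen. The comparison, the 38 lists and the rules were chosen with earlier results of these data known.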

Additional observations from a re-analysis of the deposited data

Results flagged for a closer look

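In 12 of 224 groups of sham libraries, over 112 genes, the highest or lowest library stood apart from the others by most of the group's range (5.36%; chance flags about 1 group in 20). Sham desipramine replicate 2 was highest for Tnnt1 at 2.92 CPM, next to 1.06, and lowest for Ddit4 at 27.3 CPM, next to 31.9. Sham desipramine replicate 4 was highest for Fbxo48 at 0.965 CPM, next to 0.8, and for Gria1 at 1150 CPM, next to 1010.

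Sham saline replicate 2 was highest in 4 of them: Cdkn1a at 22.1 CPM, next to 16.6, Gbp3 at 21.1 CPM, next to 6.77, Igtp at 14.2 CPM, next to 3.49, and Syn1 at 377 CPM, next to 334. Sham saline replicate 3 was highest in 3: Adra2a at 19.7 CPM, next to 8.93, Shank1 at 410 CPM, next to 338, and Spp1 at 26.0 CPM, next to 6.05. In sham saline replicate 4, Manf was lowest at 76.8 CPM, next to 84.6. Leaving out the library that stood apart moved the log2 difference of desipramine over saline most for Igtp, to -0.34 from -1.32, for Spp1, to -0.37 from -1.38, and for Gbp3, to -0.54 from -1.27. The differences without it were -3.53 for Tnnt1, -0.32 for Ddit4, -0.58 for Fbxo48, 0.11 for Gria1, -0.26 for Cdkn1a, 0.49 for Syn1, 1.5 for Adra2a, 0.64 for Shank1 and 0.075 for Manf. The cause of these values standing apart was not tested.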

How the results depend on the processing

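Of 2848 values of 128 gene results under the alternatives, 2695 kept their direction and side of the threshold, 26 passed it newly, 112 no longer passed and 15 changed sign. The values that no longer passed all belong to genes called against tianeptine, since no gene passed against saline in the main analysis. Those that passed newly all belong to the comparison with saline. The pooled count is therefore no measure of how stable the calls against tianeptine were. Desipramine against saline in sham mice gave 0 calls in the main analysis, 22 with DESeq2, 2 with DESeq2's size factors in edgeR, 4 with the cortical score as covariate, 1 without saline replicates 2 and 3 (chosen after seeing the data), and 0 to 2 without single libraries. In SNI mice it gave 555 with DESeq2 and 0 to 3352 without single libraries, and the difference between surgeries 100 and 0 to 957. Against tianeptine the 17 calls became 152 with DESeq2, 1 in the first library set, 1 with the replicate block there, and 4 to 38 without single libraries. The cause of these shifts was not tested. With the replicate number as a block the sham comparison gave 0 calls. Same-numbered desipramine and saline libraries correlated by 0.108, 0.082, 0.466 and 0.344 in their deviations, not all over 0.1, so the numbers were not read as pairs. Replicates 1 and 2 of desipramine and of saline correlated more with another number.

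With the cortical score as covariate, Slc17a7 changed sign, to -0.63. That score holds Slc17a7 itself, so no conclusion about the gene is drawn from this value. Without saline replicates 2 and 3 the sign changes were Spred1 at -0.031 and Gbp2 at 0.13. Without desipramine replicates 1 and 3 (also chosen after seeing the data) they were C1ql3 at -0.056, Bdnf at -0.029, Bmp3 at -0.48 and Grk3 at -0.0092. In that setting Slc17a7 was at -0.34, Homer2 at -0.16, Drd2 at 0.18 and Ppp1r1b at 0.14. Nptxr was there at -0.079, Dlgap1 at -0.052, Adra2a at -0.37 and Adrb1 at -0.13. Groups of 4 and 5, with 1 deeper saline library of another set and no desipramine library in that set, limit what the test can call; genes under about 1 CPM rest on few counts.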
